A study of Homo sapiens with 6 samples.

Results

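The amino acid transporter genes described here were all rows of the count table whose symbol belongs to solute carrier family SLC1, SLC3, SLC6, SLC7, SLC36, SLC38 or SLC43. Within these families the symbol alone chose the rows, but the families themselves were chosen with earlier results of these data known. The members numbered 59 of 59653 genes. They were measured by RNA sequencing of SK-OV3, an established human ovarian cancer cell line whose genotype is labelled as wildtype. One group of 3 libraries (siPVT1) came from cells transfected with a Dharmacon pool of siRNAs against the long noncoding RNA PVT1, and the other 3 libraries (siControl) came from cells given scrambled control siRNAs. Both were used at 50 nM and RNA was taken 48 h after transfection. The comparison asks which transcripts differ once PVT1 is reduced. It rests on 1 targeting pool in 1 cell line, so effects of PVT1 loss and off-target effects of the pool cannot be told apart.

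Amino acids do not cross membranes unaided, and each family of carriers handles a different set of them. SLC7 light chains are exchangers that reach the cell surface by pairing with an SLC3 heavy chain, and through them a cell trades an amino acid it holds for one it lacks. SLC1 and SLC38 carriers use the sodium gradient or exchange to move glutamate, alanine, serine and glutamine, SLC6 carriers use sodium and chloride to take up glycine, GABA, taurine or branched-chain amino acids, SLC36 carriers use protons, and SLC43 carriers pass large neutral amino acids without sodium. Many tumour cells hold high levels of the cystine carrier SLC7A11, the large neutral carrier SLC7A5 and the glutamine carrier SLC1A5, and their genes are known targets of stress factors such as ATF4 and NRF2.

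Total counts per library ranged from 28383171 to 35059576. PVT1 itself had 3298, 4090.5 and 3377 normalized counts in the siControl libraries and 2349.7, 2111 and 2062 in the siPVT1 libraries, a log2 fold change of -0.72 (SE 0.0967, edgeR quasi-likelihood test with Benjamini-Hochberg adjusted p = 0.000342), so the targeted gene was lower in all 3 siPVT1 libraries but was still present. Among 6 epithelial markers KRT8 and KRT18 were abundant, whereas EPCAM (41.3 to 127 normalized counts) and CDH1 (0 to 47.0) were low in both groups. KRT19 rose from 256 ± 18.5 to 1261 ± 448 normalized counts, and ERBB2 fell from 1249 ± 68.9 to 929 ± 32.9 (SD, n = 3). Of 4 leukocyte markers 3 had at most 3 counts in every library, and CD14 had 6.06 to 9.52 normalized counts in siControl and 2.19 to 3.34 in siPVT1. The summed level of 3 endothelial markers went from 2046 to 2072 in siControl to between 8608 and 10883 in siPVT1, and that of 4 fibroblast markers from between 126 and 135 to between 501 and 522. All 3 endothelial markers rose more than 2-fold at an adjusted p under 0.05. Most of their sum was CDH5 (1998 ± 7.09 to 9314 ± 1108 normalized counts, SD, n = 3). The fibroblast sum was mostly COL1A1 (113 ± 8.70 to 505 ± 7.70 normalized counts, SD, n = 3), with COL3A1 and DCN at no more than 3 counts in any library and LUM at 15.9 ± 7.64 and 7.23 ± 5.09. The summed level of the epithelial markers went from between 17339 and 19591 to between 23306 and 25236. The part of these markers in the results on transporters was not tested. In such bulk libraries fewer cells of a type and less RNA per cell cannot be told apart. Nothing in the labels says that the 3 libraries of a group were separate cultures, so p-values measure only the spread between these libraries, which may be technical.

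Fewer transporter transcripts were present after siPVT1. The 59 genes together took 0.519%, 0.528% and 0.525% of all counts in the siControl libraries and 0.245%, 0.266% and 0.273% in the siPVT1 libraries, and the groups did not overlap. Summed normalized counts, that is counts scaled to a common library size, were 154907 ± 2996 (SD, n = 3) in siControl and 85646 ± 4712 in siPVT1, which left 55.3% of the siControl level. Most of that sum lay in a few genes. SLC7A11, SLC7A5 and SLC3A2 made up 47.6% of the members' normalized counts in siControl and 15.4% in siPVT1, while SLC38A1 and SLC38A2 went from 22.0% to 39.0%.

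A total of 33 members had enough counts to be tested. With edgeR's quasi-likelihood test across all 19008 genes kept, 17 of the 33 fell and 5 rose at a Benjamini-Hochberg adjusted p under 0.05, against 28.4% of all tested genes that fell and 29.5% that rose. Past a 2-fold change as well, 9 members fell, against 9.64% of all tested genes, and 2 rose, against 11.8%. The shares of the tested members were 51.5% and 15.2% by adjusted p, and 27.3% and 6.06% past both thresholds. The median log2 fold change was -0.47 over the 33 members and 0.001 over all tested genes. SLC6A9, SLC6A13, SLC7A11, SLC6A12, SLC7A5, SLC3A2, SLC43A2, SLC6A17 and SLC1A5 fell past both thresholds, and SLC1A1 and SLC43A3 rose. SLC6A12 and SLC6A13 were kept for the test by their siControl libraries alone, so a lower siPVT1 level was bound to go with them, and SLC6A13 lies below the median with its bound too. Scaling to the total count instead moved the median of all tested genes to -0.15 and left these counts of 9 and 2 as they were.

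**Figure D1:**
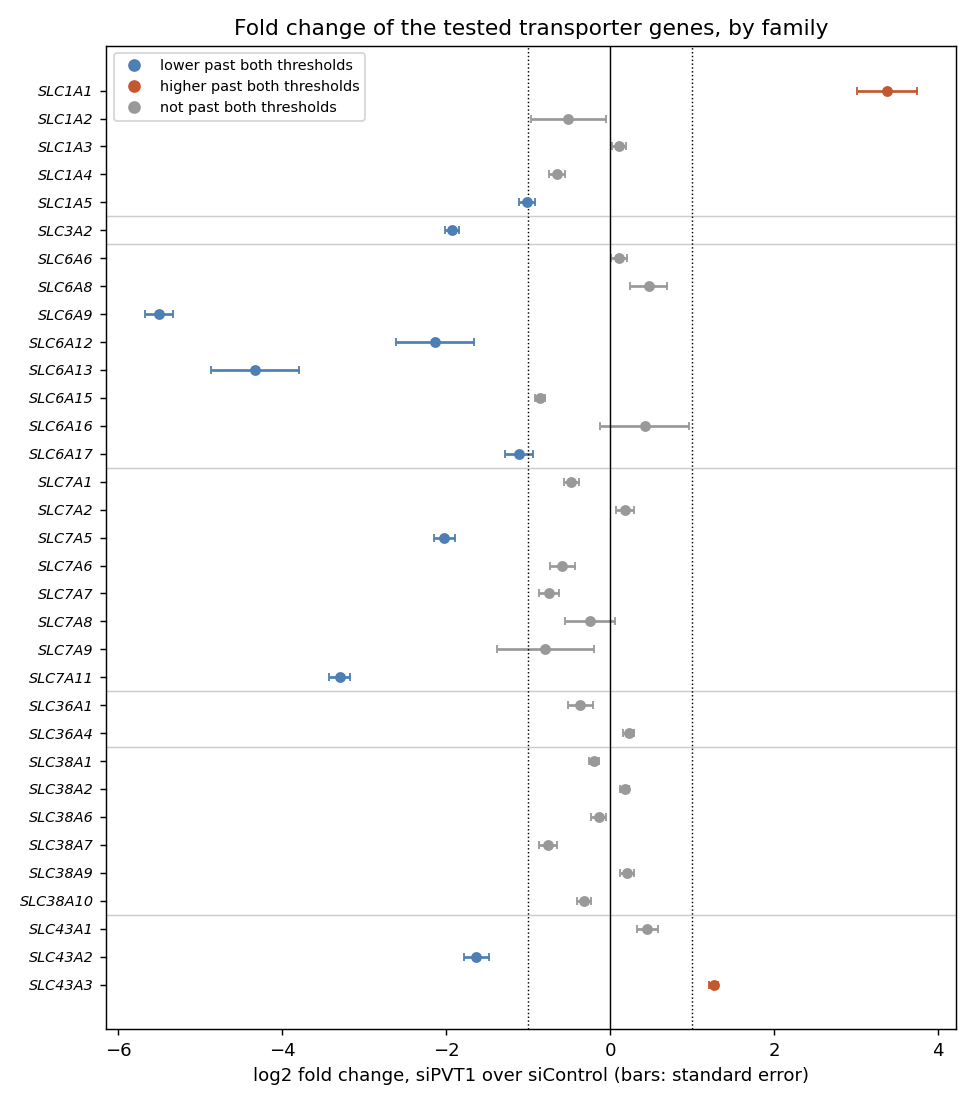
Log2 fold change of each of the 33 tested transporter genes (siPVT1 over siControl, 3 libraries each, x axis) by gene, with families divided by grey lines. Points are edgeR estimates, bars their standard errors, dotted lines a 2-fold change. SLC6A9 at -5.50 and SLC7A11 at -3.29 lie far to the left, while SLC1A1 at 3.38 and SLC43A3 at 1.26 lie to the right. The SLC6A13 estimate rests on siPVT1 counts of 0 to 2 and is no measure of its size.

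The members lie on many chromosomes, and their promoter sequences were looked at because several fell together. RefSeq promoters (GRCh38.p14) were found for 44 of the 59 members, 66 promoters in all. The 250 bases before each start were searched on both strands for TGATGNAA, the ATF4 composite element, TGACNNNGC, the antioxidant response element bound by NRF2, CACGTG, the E-box, and TGANTCA, the AP-1 site, which can overlap the antioxidant element. TGATGNAA was present in 3.03% of member promoters and 3.14% of all 35116 promoters, TGACNNNGC in 9.09% and 10.9%, CACGTG in 13.6% and 6.34%, and TGANTCA in 15.2% and 6.57%. A match is a description of the letters only. Matches named for a gene are pooled over all its promoters. Of the genes that fell past both thresholds, SLC1A5 held TGACNNNGC and CACGTG before 1 start and TGATGNAA before a different start. SLC3A2 held TGACNNNGC and TGANTCA at the same place, SLC43A2 and SLC6A17 held TGANTCA, and SLC7A5 held CACGTG. Most member genes with a match did not fall past both thresholds. TGANTCA was found for 10 members, among them SLC1A3, SLC36A4, SLC38A1, SLC38A9 and SLC7A8. CACGTG was found for 9, among them SLC36A1, SLC43A1, SLC6A16, SLC7A7 and SLC7A8. TGACNNNGC was found for 6, among them SLC1A3, SLC7A1, SLC7A6 and SLC7A7. Whether matches go with a fall was not tested. Stretches before the start of 3 of these genes are shown, from the shared heavy chain, its large neutral light chain and the glycine carrier with the largest fall, so that promoters with a match can be set beside one with none of the 4. No stretch with TGATGNAA is shown. Capitals mark matches, the sequences read 5′ to 3′ on the gene's own strand, and bases that fall inside an annotated exon were left out.
SLC3A2, chr11:62881454-62881697, plus strand: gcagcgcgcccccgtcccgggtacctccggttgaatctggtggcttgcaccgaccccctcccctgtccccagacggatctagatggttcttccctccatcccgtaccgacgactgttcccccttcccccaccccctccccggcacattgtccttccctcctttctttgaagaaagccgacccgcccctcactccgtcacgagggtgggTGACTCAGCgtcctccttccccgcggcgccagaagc
SLC7A5, chr16:87869508-87869757, minus strand: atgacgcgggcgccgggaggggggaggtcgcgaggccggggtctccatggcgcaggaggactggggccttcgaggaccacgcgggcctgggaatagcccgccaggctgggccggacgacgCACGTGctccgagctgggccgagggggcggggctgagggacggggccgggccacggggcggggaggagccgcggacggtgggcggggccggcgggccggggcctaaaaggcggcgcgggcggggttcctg
SLC6A9, chr1:44031468-44031712, minus strand: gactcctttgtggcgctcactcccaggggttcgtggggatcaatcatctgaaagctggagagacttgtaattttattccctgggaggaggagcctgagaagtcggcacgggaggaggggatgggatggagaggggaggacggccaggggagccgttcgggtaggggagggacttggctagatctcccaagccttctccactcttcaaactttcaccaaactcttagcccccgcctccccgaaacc
In the SLC3A2 stretch the capitals are TGACTCAGC, which starts 37 bases before the start and matches both the antioxidant and the AP-1 letters. In the SLC7A5 stretch they are an E-box 130 bases before the start. In the SLC6A9 stretch none of the 4 motifs was found. SLC7A11 and SLC43A3 were not analysed for promoter letters.

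The heavy chain and its light chains carried the bulk of the loss. SLC3A2 (chromosome 11, 62856004 to 62888880, plus strand, GRCh38, protein coding) encodes 4F2hc, also called CD98, the partner that several light chains need to reach the membrane. It had 12772, 11757 and 12892 normalized counts in siControl and 2932, 3394 and 3511 in siPVT1. All siPVT1 libraries lay far below all siControl libraries, and 26.3% of the siControl level remained (log2 fold change -1.93, SE 0.0825, edgeR quasi-likelihood adjusted p = 1.52e-06). SLC3A1, the heavy chain of the kidney and gut cystine carrier, had too few counts to be tested.

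SLC7A11 (chromosome 4, 138164097 to 138242349, minus strand) encodes xCT, which takes up cystine in exchange for glutamate and so feeds glutathione synthesis. It had 36047, 34428 and 36428 normalized counts in siControl and 2904, 4065 and 3923 in siPVT1. Every siPVT1 library was far below every siControl library, with no overlap. The mean fell from 35634 ± 1062 to 3631 ± 633 (SD, n = 3), which was 9.81-fold lower (log2 fold change -3.29, SE 0.128, edgeR quasi-likelihood adjusted p = 1.05e-06). An antisense gene, SLC7A11-AS1, shares 865 exonic bases with it on the other strand and had 2, 4 and 4 counts in siControl and 0 in each siPVT1 library.

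SLC7A5 (chromosome 16, 87830023 to 87869507, minus strand) encodes LAT1, the exchanger that brings in leucine and other large neutral amino acids. Its normalized counts were 25717, 25617 and 25414 in siControl and 5091, 6281 and 7510.4 in siPVT1. The siControl libraries were almost level, the siPVT1 libraries were spread more widely, and the groups were well apart. The fall, from 25583 ± 154 to 6294 ± 1209.5 (SD, n = 3), was 4.06-fold (log2 fold change -2.02, SE 0.128, edgeR quasi-likelihood adjusted p = 7.61e-06). Its pseudogenes SLC7A5P1 and SLC7A5P2 had 0 counts in every library.

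The other light chains of SLC3A2 moved less. SLC7A6 and SLC7A7, which encode the exchangers y+LAT2 and y+LAT1 and trade cationic for neutral amino acids, fell by 0.58 (SE 0.154, edgeR quasi-likelihood adjusted p = 0.0115) and by 0.74 (SE 0.123, adjusted p = 0.00109) on the log2 scale. SLC7A6 ranged from 1685 to 1920.5 normalized counts in siControl and from 941 to 1508 in siPVT1, and SLC7A7 from 119 to 129.5 and from 72.4 to 74.3. On the other strand SLC7A6OS shares 3372 exonic bases with SLC7A6, and an annotated gene with no symbol shares 845. Their reads may not be told apart from those of SLC7A6, which also holds for its ratio to SLC3A2 below. SLC7A8, which encodes LAT2, had 16.2 to 21.2 and 11.3 to 19.7, overlapping ranges (log2 fold change -0.24, SE 0.305, adjusted p = 0.531). SLC7A10, the small neutral carrier Asc-1, was not tested. Taken as a class, the light chains of SLC3A2 summed to 63158 ± 919 normalized counts in siControl and 11215 ± 2027 in siPVT1, or 17.8% of the siControl level, so the sum left was a smaller share than the 26.3% left of their heavy chain.

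The balance between each tested light chain and SLC3A2 was compared within libraries, as the log2 ratio of their normalized counts, which no scaling of the library can move. Ratios of different light chains are not on a per-length scale and only their change is compared. For SLC7A11 the log2 ratio was 1.497, 1.550 and 1.498 in siControl and -0.014, 0.260 and 0.160 in siPVT1, a difference of -1.38, so SLC7A11 fell further than its partner. For SLC7A5 it was 1.01, 1.12 and 0.98 in siControl and 0.80, 0.89 and 1.10 in siPVT1. Those ranges overlapped, and the difference was -0.11. The ratio to SLC3A2 was higher in siPVT1 by 1.32 for SLC7A6, by 1.19 for SLC7A7 and by 1.68 for SLC7A8, with no overlap between groups. None of these light chains rose, so their higher ratios restate the larger fall of SLC3A2. SLC7A8 had few counts in either group. A two-sided exact permutation test of 3 libraries against 3 cannot go below p = 0.1, and it gave that smallest value for SLC7A6, SLC7A7, SLC7A8 and SLC7A11 (Benjamini-Hochberg adjusted over 5 light chains, 0.125) and p = 0.3 for SLC7A5 (adjusted 0.3).

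**Figure D2:**
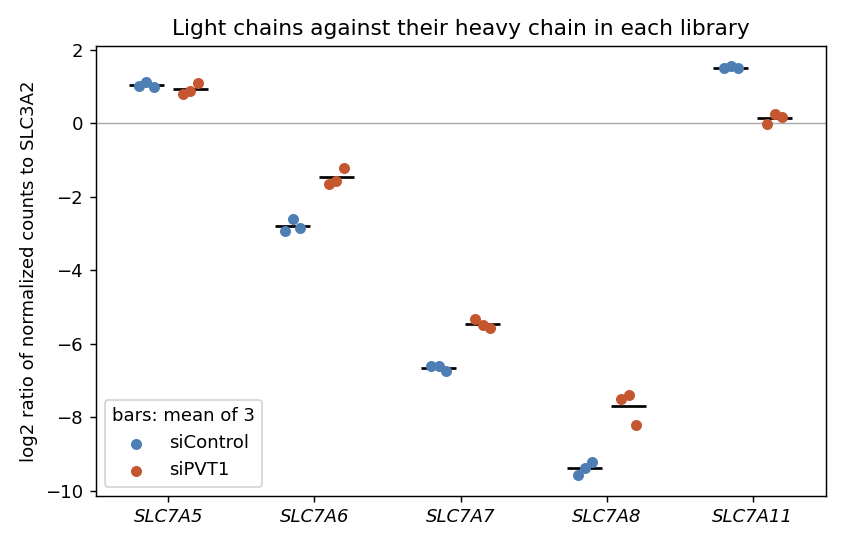
Log2 ratio of the normalized counts of each tested light chain to those of SLC3A2 (y axis) in the 3 siControl and 3 siPVT1 libraries, with bars at the means of 3. SLC7A11 dropped from between 1.497 and 1.550 to between -0.014 and 0.260, SLC7A5 overlapped between groups, and SLC7A6, SLC7A7 and SLC7A8 sat higher in siPVT1.

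The cationic carriers of the SLC7 family do not need a heavy chain. SLC7A1, which encodes CAT1 and takes up arginine, lysine and ornithine, had 14322, 14168 and 14082 normalized counts in siControl and 9019, 9851 and 11861 in siPVT1. Its siPVT1 libraries were spread but all lay below siControl, and it fell by 0.47 on the log2 scale (SE 0.0963, edgeR quasi-likelihood adjusted p = 0.00333), short of a 2-fold change. SLC7A2, which encodes CAT2, had 693 to 705 and 698 to 924 (log2 fold change 0.18, SE 0.106, adjusted p = 0.175). SLC7A9, the light chain that pairs with SLC3A1, had 1.09 to 6.47 normalized counts across all libraries (log2 fold change -0.79, SE 0.587, adjusted p = 0.284).

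The SLC1 family held genes that moved in opposite directions. SLC1A5 (chromosome 19, 46774883 to 46788594, minus strand) encodes ASCT2, an exchanger of glutamine and small neutral amino acids. Its normalized counts were 8521, 8064 and 8577 in siControl and 3572, 4256 and 4654 in siPVT1. The groups did not overlap, and it fell to 49.6% of its siControl level (log2 fold change -1.01, SE 0.0952, edgeR quasi-likelihood adjusted p = 5.20e-05). Without siPVT1 replicate 1 its log2 fold change was -0.93, short of the 2-fold threshold.

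SLC1A4, which encodes ASCT1 and exchanges alanine, serine, cysteine and threonine, had 1450.3, 1418 and 1440.1 normalized counts in siControl and 782, 971 and 1004 in siPVT1. The siControl libraries were almost level and all siPVT1 libraries were lower, a fall of 0.64 on the log2 scale (SE 0.0971, edgeR quasi-likelihood adjusted p = 0.000657). SLC1A1 (chromosome 9, 4490468 to 4587469, plus strand) went the other way. It encodes EAAT3, a carrier of glutamate and aspartate that also takes up cysteine, and had 5.71, 4.04 and 12.01 normalized counts in siControl and 94.7, 74.3 and 63.9 in siPVT1. It was close to the lower limit of the assay in siControl and clearly present in every siPVT1 library, 10.4-fold higher (log2 fold change 3.38, SE 0.362, edgeR quasi-likelihood adjusted p = 0.000102). The fold rests on 6, 4 and 13 raw counts in siControl, and those libraries alone would not have kept SLC1A1 for the test. Without a library its log2 fold change ran from 3.11 to 3.94.

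SLC1A3, which encodes the glutamate carrier EAAT1, had 751 to 803 normalized counts in siControl and 780.1 to 922 in siPVT1 (log2 fold change 0.11, SE 0.0834, edgeR quasi-likelihood adjusted p = 0.294), and its log2 fold change turned to -0.040 with scaling to the total count. SLC1A2, which encodes EAAT2, had 3.76 to 11.4 across all libraries (log2 fold change -0.51, SE 0.459, adjusted p = 0.374). As summed normalized counts, the 2 small neutral exchangers SLC1A4 and SLC1A5 stood at 51.7% of siControl and the anionic carriers at 116%. In normalized counts the rise of SLC1A1, from 7.25 ± 4.201 to 77.6 ± 15.6 (SD, n = 3), was small beside the fall of SLC1A5, from 8387 ± 281 to 4161 ± 547.

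The SLC6 family had 19 members, of which 8 were tested, 5 fell by adjusted p, against 28.4% of all tested genes, and 4 of these also passed the 2-fold threshold, against 9.64%. The 4 include SLC6A12 and SLC6A13, which were kept for the test by siControl alone. SLC6A9 (chromosome 1, 43991500 to 44031467, minus strand) showed the largest fitted change of all members. It encodes GlyT1, the glycine carrier. It had 498, 512 and 511 normalized counts in siControl and 7.80, 9.83 and 15.03 in siPVT1, from raw counts of 523, 507 and 553 against 7, 9 and 16. The siControl libraries agreed closely, and each siPVT1 library was just above the limit of detection. The level fell to 2.21% of siControl, a 45.2-fold fall (log2 fold change -5.50, SE 0.17, edgeR quasi-likelihood adjusted p = 5.14e-07), and its range over the alternatives was -5.84 to -5.33. CCDC24, which shares 413 exonic bases with SLC6A9 on the other strand, had 80.0, 52.5 and 85.0 normalized counts in siControl and 164, 166 and 148 in siPVT1, the opposite direction. The other glycine carrier, SLC6A5, had 0 counts in every library.

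SLC6A13 and SLC6A12, neighbours on chromosome 12 (220621 to 262873 and 190077 to 214570, both on the minus strand), encode GAT2, a GABA carrier, and BGT1, a carrier of betaine and GABA. SLC6A13 had 22.9, 22.2 and 24.9 normalized counts in siControl and 0, 2.19 and 0.94 in siPVT1. With at most 3 counts in each siPVT1 library it was at least 7.42-fold lower, where the bound sets each siPVT1 library at 3 counts (edgeR quasi-likelihood adjusted p = 0.000223). SLC6A12 had 11.4, 13.1 and 12.9 in siControl and 2.23, 1.09 and 4.70 in siPVT1 (log2 fold change -2.13, SE 0.476, adjusted p = 0.00518), from 1 to 5 raw counts in the siPVT1 libraries. Without siPVT1 replicate 3 its log2 fold change was -2.84. Both were scarce in either group, and no siPVT1 library reached a siControl library.

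SLC6A6, which encodes the taurine carrier TauT, was far more abundant than both, per kilobase of transcript as well. Its normalized counts were 6862, 6617 and 6744 in siControl and 8311, 7358 and 6169 in siPVT1. The siPVT1 libraries lay on both sides of siControl (log2 fold change 0.11, SE 0.101, edgeR quasi-likelihood adjusted p = 0.38). The direction was not stable: it was -0.039 with scaling to the total count and -0.010 without siPVT1 replicate 1, and 0.20 with an adjusted p of 0.00999 without siPVT1 replicate 3. SLC6A6 made up nearly all of this class, and the summed normalized counts of the GABA, betaine and taurine carriers stood at 107% of siControl.

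Of 4 sodium-coupled carriers of large neutral amino acids 2 were tested, SLC6A17 and SLC6A15, and both fell. SLC6A17 (chromosome 1, 110150494 to 110202202, plus strand), which encodes the vesicular neutral amino acid carrier NTT4, had 115, 109 and 116 normalized counts in siControl and 54.6, 42.6 and 60.1 in siPVT1. No siPVT1 library overlapped siControl (log2 fold change -1.11, SE 0.165, edgeR quasi-likelihood adjusted p = 0.000605), and without siPVT1 replicate 2 the log2 fold change of -0.997 was just short of the threshold. SLC6A15, which encodes B0AT2, a carrier of branched-chain amino acids and proline, fell from between 3108 and 3398 to between 1734 and 1872 (log2 fold change -0.85, SE 0.0639, adjusted p = 1.68e-05). The remaining tested SLC6 genes had wide ranges. The creatine carrier SLC6A8 had 164 to 180.1 in siControl and 164 to 321 in siPVT1 (log2 fold change 0.47, SE 0.22, adjusted p = 0.101), and its adjusted p was 0.00366 without siPVT1 replicate 3. The orphan member SLC6A16 had 1.90 to 6.56 across all libraries (log2 fold change 0.42, adjusted p = 0.537).

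The SLC38 family, sodium-coupled carriers of glutamine and other neutral amino acids, held no change as large as those of SLC7A11 and SLC7A5. Those were the only 2 of 8 tested SLC7 genes past both thresholds. The rest of the tested SLC7 genes had log2 fold changes from -0.79 to 0.18, and the tested SLC38 genes from -0.75 to 0.21. Of 11 SLC38 members 6 were tested. By adjusted p 3 fell and 1 rose, 50% and 16.7% against 28.4% and 29.5% of all tested genes. None passed both thresholds by edgeR's quasi-likelihood test, against 9.64% of all tested genes lower and 11.8% higher. With only 6 genes tested, that count cannot be set apart from these shares. At an unadjusted p under 0.05, 3 of the 6 were lower and 2 higher. SLC38A1 (chromosome 12, 46183063 to 46270017, minus strand), which encodes SNAT1, a glutamine carrier, had 20563, 19922 and 20709.9 normalized counts in siControl and 16554, 18170.3 and 18629.9 in siPVT1. SLC38A2, its neighbour at 46358188 to 46372773, encodes SNAT2, a carrier of small neutral amino acids that cells are known to induce when amino acids run short. It had 13905, 13218 and 14062 in siControl and 15625, 16018 and 15061 in siPVT1. In both genes the groups were close but did not overlap, with siPVT1 lower in SLC38A1 (log2 fold change -0.20, SE 0.0624, edgeR quasi-likelihood adjusted p = 0.0252) and higher in SLC38A2 (0.18, SE 0.056, adjusted p = 0.0229). These small changes were not stable. With scaling to the total count SLC38A2 had a log2 fold change of 0.03 (adjusted p = 0.599). Its adjusted p was between 0.0568 and 0.0925 without any one of the siControl libraries or without siPVT1 replicate 2, and that of SLC38A1 was 0.0748 without siControl replicate 1 and 0.0805 without siControl replicate 3. Together with SLC38A4, the sum for these system A carriers was 97.7% of siControl.

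The other SLC38 genes were less abundant. SLC38A7, which encodes the lysosomal glutamine and asparagine carrier SNAT7, fell from between 1199.9 and 1252 normalized counts to between 636 and 852 (log2 fold change -0.75, SE 0.108, edgeR quasi-likelihood adjusted p = 0.000507). SLC38A10 fell by 0.32 on the log2 scale (SE 0.0816, adjusted p = 0.0103). SLC38A9, the lysosomal arginine sensor that acts on the growth kinase mTOR, had a log2 fold change of 0.21 (SE 0.0891, adjusted p = 0.0798), and SLC38A6 of -0.14 (SE 0.0872, adjusted p = 0.202), and for both the ranges of the groups overlapped. Without siPVT1 replicate 1 the adjusted p of SLC38A9 was 0.011, and with scaling to the total count that of SLC38A6 was 0.0203. Among the proton-coupled SLC36 carriers 2 of 4 were tested. SLC36A4, a carrier of proline and tryptophan, had 754 to 806 in siControl and 872 to 943 in siPVT1 (log2 fold change 0.23, SE 0.07, adjusted p = 0.0228), and 0.08 with an adjusted p of 0.402 under scaling to the total count. Its adjusted p was between 0.0818 and 0.102 without siControl replicate 1, siControl replicate 3 or siPVT1 replicate 2. SLC36A1, which encodes the lysosomal and plasma membrane carrier PAT1, had 613 to 630.4 and 392 to 612 (log2 fold change -0.36, SE 0.152, adjusted p = 0.0716). Without siPVT1 replicate 3, its highest siPVT1 library, SLC36A1 had -0.59 and an adjusted p of 0.000125, and by DESeq2 its adjusted p was 0.0447.

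The 3 SLC43 genes were all tested and went in different directions. SLC43A2 (chromosome 17, 1569268 to 1628886, minus strand), which encodes LAT4, a sodium-independent carrier of branched-chain and other large neutral amino acids, had 364, 402 and 412 normalized counts in siControl and 118, 104 and 157 in siPVT1. The groups were well apart, and the mean fell from 393 ± 25.5 to 126 ± 27.5 (SD, n = 3), a 3.09-fold fall (log2 fold change -1.63, SE 0.152, edgeR quasi-likelihood adjusted p = 4.95e-05). SLC43A1, which encodes LAT3 and carries the same amino acids, had 212, 165 and 187 in siControl and 281, 268 and 226 in siPVT1. All its siPVT1 libraries were above siControl, and it rose by 0.46 on the log2 scale (SE 0.131, adjusted p = 0.0168), which became 0.31 with an adjusted p of 0.0609 under scaling to the total count. Without siControl replicate 2, siControl replicate 3 or siPVT1 replicate 2 its adjusted p was between 0.0546 and 0.0596.

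SLC43A3 (chromosome 11, 57406954 to 57427580, minus strand) belongs to the family by sequence but encodes ENBT1, which carries purine nucleobases and not amino acids. It had 2497, 2525 and 2509 normalized counts in siControl and 6145, 5799 and 6145 in siPVT1. Both groups were tight and far apart, and it rose 2.40-fold (log2 fold change 1.26, SE 0.0551, edgeR quasi-likelihood adjusted p = 1.64e-06). An annotated gene with no symbol shares 1349 exonic bases with it on the same strand, so the counting could divide reads between them. Of the members that carry amino acids, SLC1A1 was the only one that rose past both thresholds, among the 33 tested.

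**Figure D3:**
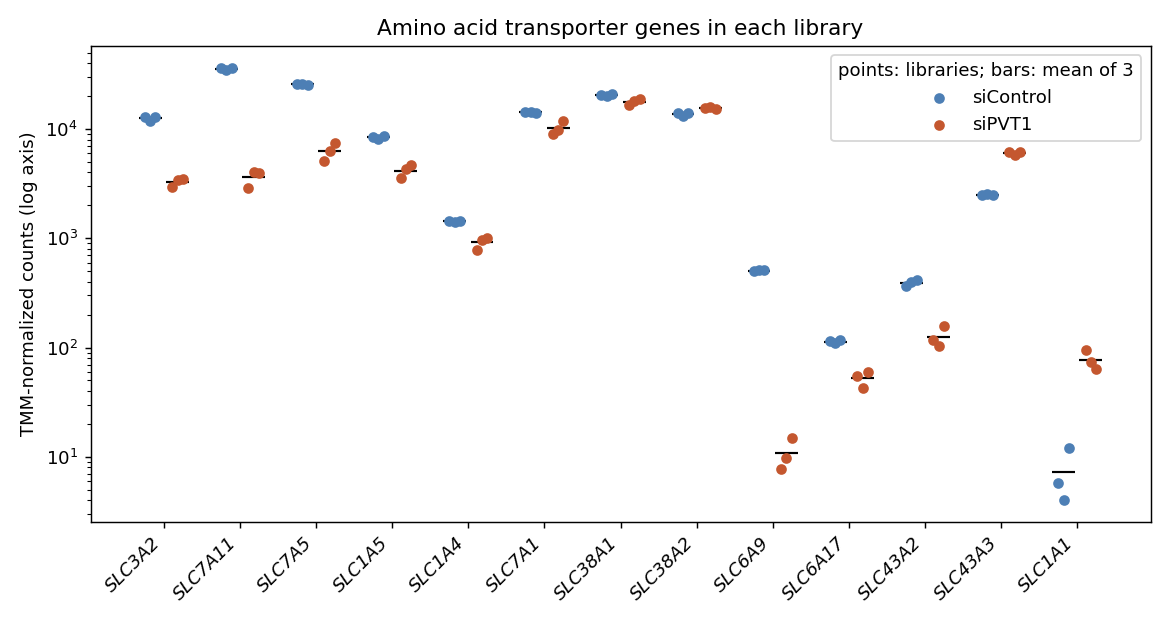
TMM-normalized counts (log y axis) of 13 transporter genes in each library, blue for the 3 siControl and red for the 3 siPVT1 libraries, with bars at the means of 3. SLC6A9 fell from 507 to between 7.80 and 15.03, SLC7A11 and SLC7A5 fell from the top of the plot, and SLC38A1 and SLC38A2 stayed close between groups.

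The fall of SLC7A11, SLC7A5 and SLC3A2 changed which carriers were the most abundant. Levels of different genes were compared as normalized counts per kilobase of the longest annotated transcript (GENCODE v44), which may not be the transcript these cells use. In siControl the order was SLC7A5 (5615 ± 33.8 per kilobase, SD, n = 3), SLC3A2 (4388 ± 219), SLC7A11 (3695 ± 110.1), SLC1A5 (2910.2 ± 97.7), SLC38A2 (2863 ± 93.6), SLC38A1 (2519 ± 51.7) and SLC7A1 (1933 ± 16.6). SLC1A5 and SLC38A2 did not differ beyond their spread, and the other neighbours in this order lay further apart than their SDs. SLC6A6 and SLC43A3 followed at 1033 ± 18.8 and 958 ± 5.31.

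In siPVT1 the order was SLC38A2 (3247 ± 100.3 per kilobase), SLC43A3 (2302 ± 76.4), SLC38A1 (2196 ± 135), SLC1A5 (1444 ± 189.8), SLC7A1 (1395 ± 199), SLC7A5 (1382 ± 265), SLC3A2 (1153 ± 108) and SLC6A6 (1115 ± 164), with SLC7A11 (376 ± 65.6) in place 9. SLC43A3 and SLC38A1 did not differ beyond their spread. The levels from SLC1A5 to SLC6A6 lay within the spread of their neighbours and have no clear order among themselves. SLC38A2 was the most abundant carrier by this measure, in place 1 after place 5 in siControl, and the 4 genes that were above it in siControl had all fallen.

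**Figure D4:**
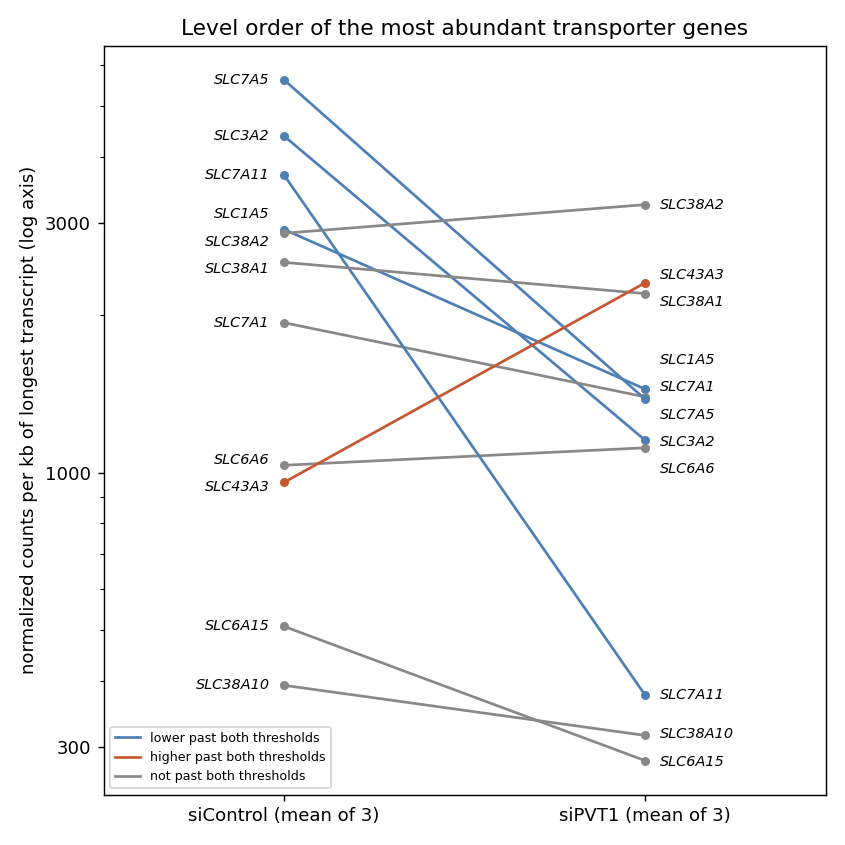
Mean normalized counts per kilobase of the longest transcript (log y axis) of the most abundant transporter genes in siControl and in siPVT1, each the mean of 3 libraries, with a line joining each gene. SLC7A5, SLC3A2 and SLC7A11 lead in siControl, whereas SLC38A2 and SLC43A3 lead in siPVT1 and SLC7A11 falls to 376.

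The remaining 26 members were not tested. Of these, 20 had at most 3 counts in every library and no count exceeded 9. SLC1A6, SLC6A5, SLC6A18, SLC7A3, SLC7A4, SLC38A8 and SLC38A11 had 0 counts throughout. In these libraries 3 counts, the number that a count of 0 still allows, are 0.0856 to 0.106 CPM, that is counts scaled to the library total, a limit that covers counting error only. The untested genes include the neuronal carriers of noradrenaline, dopamine and serotonin (SLC6A2, SLC6A3, SLC6A4), the kidney and gut neutral carriers SLC6A18 and SLC6A19, the proline carriers SLC6A7 and SLC6A20, and the glutamine carriers SLC38A3 and SLC38A5. No test was made of them.

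Amino acid carriers outside these families moved in both directions. A list of 24 of them, mostly of the inner mitochondrial membrane, the lysosome and vesicles, had 18 tested genes, of which 3 fell and 4 rose past both thresholds, 16.7% and 22.2% against 9.64% and 11.8% of all tested genes, with a median log2 fold change of -0.27. By adjusted p alone 9 fell and 6 rose, 50% and 33.3% against 28.4% and 29.5% of all tested genes. The share that fell was near the 51.5% of the members. Of the 4 that rose, SLC17A7 and SLC15A1 were kept for the test by their siPVT1 libraries alone, so a higher siPVT1 level was bound to go with them. The count that rose was 1 without siPVT1 replicate 1, 1 without siPVT1 replicate 2 and 2 without siPVT1 replicate 3. SLC25A22, the mitochondrial glutamate carrier, had 959.9, 952 and 934 normalized counts in siControl and 223, 209.8 and 227 in siPVT1 (log2 fold change -2.11, SE 0.0757, edgeR quasi-likelihood adjusted p = 7.76e-07). Its groups were tight and far apart. The peptide carrier SLC15A2 fell by 1.57 (SE 0.493, adjusted p = 0.0248) and the mitochondrial sideroflexin SFXN2 by 1.23 (SE 0.247, adjusted p = 0.00299) on the log2 scale. SLC15A2 was scarce and uneven, with raw counts of 20, 20 and 24 in siControl and 3, 3 and 14 in siPVT1. SLC25A29, a mitochondrial carrier of basic amino acids, rose by 1.35 (SE 0.123, adjusted p = 4.38e-05), the sideroflexin SFXN3 by 1.02 (SE 0.0728, adjusted p = 1.33e-05) and the peptide carrier SLC15A1 by 1.95 from 2.02 to 4.62 normalized counts in siControl (SE 0.432, adjusted p = 0.00496). SLC17A7, a vesicular glutamate carrier, had at most 3 counts in each siControl library and was at least 3.25-fold higher in siPVT1 (adjusted p = 0.000848).

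Genes of the amino acid response, in which the factor ATF4 raises transporters and amino acid synthesis when supplies run short, were described beside the transporters. All 12 were tested, 10 fell by adjusted p, against 28.4% of all tested genes, and 8 of these past both thresholds, against 9.64%. The median log2 fold change was -1.13, and none rose by edgeR's quasi-likelihood test, also at an unadjusted p under 0.05, or past both thresholds by DESeq2. TRIB3, a pseudokinase that ATF4 induces, had 1935, 1846 and 1916 normalized counts in siControl and 493, 487 and 494 in siPVT1 (log2 fold change -1.95, SE 0.0625, edgeR quasi-likelihood adjusted p = 5.58e-07). The libraries of each group were almost level. ASNS, asparagine synthetase, had a log2 fold change of -1.89, ATF3 of -1.78, the serine synthesis enzymes PSAT1 and PSPH of -1.62 and -1.02, CHAC1, which degrades glutathione, of -1.55, SESN2 of -1.23 and DDIT3 of -1.02, with adjusted p between 3.07e-06 and 0.000137. ATF4 itself had 15706, 14300.1 and 15869 normalized counts in siControl and 10386, 11065 and 12054 in siPVT1 (log2 fold change -0.45, SE 0.0741, adjusted p = 0.00101). PHGDH fell by 0.44.

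A further list held genes of cystine and glutathione use together with the regulators NFE2L2 and KEAP1, the cysteine synthesis enzymes CBS and CTH, and the redox enzymes SRXN1 and TXNRD1. Of its 12 genes, all tested, 9 fell and 1 rose by adjusted p, against 28.4% and 29.5% of all tested genes, 6 fell past both thresholds, against 9.64%, and the median log2 fold change was -0.75. GCLC and GCLM, the subunits of the enzyme that limits glutathione synthesis, had 2359 to 2532 and 3211 to 3338 normalized counts in siControl and 533 to 675 and 532 to 901 in siPVT1 (log2 fold changes -2.04, SE 0.0933, and -2.24, SE 0.167, edgeR quasi-likelihood adjusted p = 1.86e-06 and 1.63e-05). SRXN1 fell by 2.59 and TXNRD1, thioredoxin reductase, by 1.63 on the log2 scale, both known targets of NRF2 like SLC7A11. KEAP1, the inhibitor of NRF2 and 1 of the 6 past both thresholds, fell by 1.001, only just past the 2-fold threshold. NFE2L2, which encodes NRF2, fell by 0.22 (SE 0.0546, adjusted p = 0.00785). GPX4, which uses glutathione to reduce lipid peroxides, rose by 0.96 (SE 0.118, adjusted p = 0.000216), just short of a 2-fold change. CHAC1 stands in this list and in the one before, and the lists were chosen with earlier results of these data known.

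**Figure D5:**
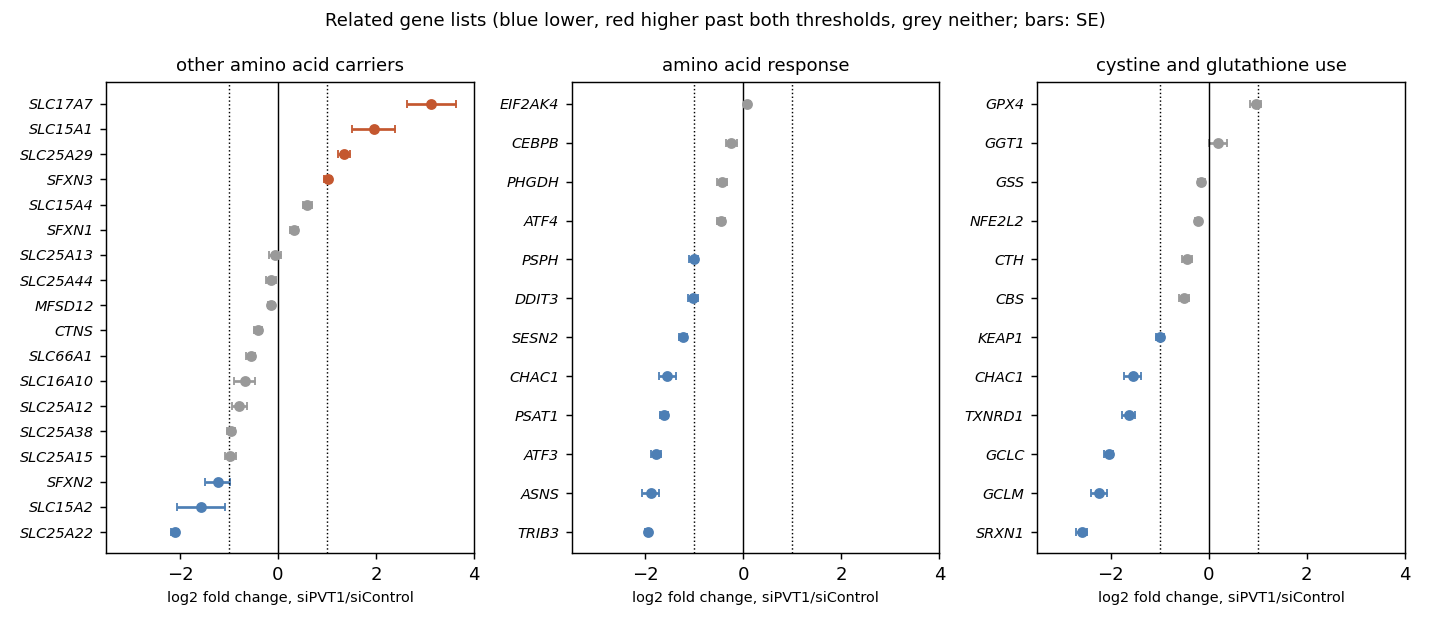
Log2 fold change (siPVT1 over siControl, x axis) of the tested genes in 3 related lists, with standard errors as bars, a 2-fold change as dotted lines, and genes past both thresholds in blue (lower) and red (higher). Other amino acid carriers spread to both sides, from -2.11 for SLC25A22 to SLC17A7, whose siControl level was at the limit of detection so that its point is no measure of size, while 8 of 12 amino acid response genes and 6 of 12 cystine and glutathione genes lie to the left of the 2-fold line.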

How the data were processed

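RNA sequencing of 6 SK-OV3 libraries was analysed, 3 siControl and 3 siPVT1, grouped by their labels. The authors aligned reads with STAR 2.7.3a and estimated counts per gene with Salmon 0.14.1 (versions per the submitters' processing notes) on GRCh38, and deposited these estimated counts as whole numbers per gene symbol, without normalization. The strand setting is not given in the sources used here, so reads of overlapping genes on opposite strands may not be told apart.

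Counts were analysed with edgeR 4.0.16 (R 4.3.3): TMM normalization, a filter that kept genes reaching 5 normalized counts in 3 or more libraries (19008 of 59653), the quasi-likelihood test with the siRNA as the only term, and Benjamini-Hochberg adjustment over all genes tested. Genes are said to rise or fall at an adjusted p under 0.05, and pass both thresholds when the log2 fold change is also 1 or more in size. Each SE is the size of the log2 fold change over the square root of F. Normalized counts are counts over the TMM library size relative to its mean. A group is at the floor with at most 3 counts in each library, and folds against it are bounds. Ratios used a pseudocount of 0.5.

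Members, lists and roles were chosen with earlier results of these data known. Values in every library are given for members past both thresholds and for SLC1A4, SLC1A5, SLC3A2, SLC7A1, SLC7A5, SLC7A11, SLC6A9, SLC38A1 and SLC38A2, and the other tested members are given by range or fold change. Positions and lengths are from GENCODE v44 (GRCh38), promoters from RefSeq. In simulated data 178 of 200 genes changed by 2 on the log2 scale were recovered among 19008 (163 of 163 with a mean of at least 20) and 8 unchanged genes were called. In the data far more genes passed both thresholds (1833 lower and 2248 higher). The simulation therefore does not show how scaling and calls behave under so wide a change. Alternatives were DESeq2 1.42.0, other scalings, filters and call rules, a replicate block, and leaving out each library.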

Additional observations from a re-analysis of the deposited data

How the results depend on the processing

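Of 408 fold changes of single members under the alternatives, 403 kept their direction and stayed on their side of the call that needs both thresholds, 2 lost the 2-fold threshold (SLC1A5 and SLC6A17, given above) and 3 turned sign. Several smaller changes crossed the adjusted p threshold alone, as given with them. The signs that turned were SLC1A3 at -0.040 and SLC6A6 at -0.039 with scaling to the total count, and SLC6A6 at -0.010 without siPVT1 replicate 1 (its range without a library ended at 0.20). By adjusted p alone 17 members fell and 5 rose in place of 9 and 2. The test against a 2-fold change (glmTreat) gave 6 and 2, against 792 lower and 1184 higher of all 19008 genes tested. Leaving out a library gave 7 to 9 and 2, against 1390 to 2082 lower and 1819 to 2198 higher of 18302 to 18556 genes tested. SLC6A12 and SLC6A13 no longer passed the filter once a siControl library was left out. A filter at a mean of 20 normalized counts, chosen after seeing the data, gave 7 and 2, against 1191 lower and 1714 higher of 15000 genes tested. Other amino acid carriers that fell numbered 5 with scaling to the total count, 1 by glmTreat, 9 by adjusted p alone and 2 to 4 without a library, in place of 3. Those that rose numbered 2 by glmTreat, 2 under the added filter, 1 without siPVT1 replicate 1, 1 without siPVT1 replicate 2, 2 without siPVT1 replicate 3 and 1 to 4 over all libraries left out, in place of 4. Amino acid response genes that fell numbered 6 by glmTreat, 10 by adjusted p alone and 7 to 8 without a library, in place of 8. Cystine and glutathione genes that fell numbered 5 by glmTreat, 9 by adjusted p alone and 5 to 6 without a library, in place of 6. Cystine and glutathione genes that rose numbered 1 by adjusted p alone and 0 to 1 without a library, in place of 0. Over all genes tested, scaling to the total count gave 2355 lower and 1835 higher calls in place of 1833 and 2248. It moved the log2 ratio of summed counts to 0.070 for anionic carriers, -1.10 for small neutral exchangers, -2.08 for heavy chains, -1.01 for large neutral sodium-coupled, -0.58 for cationic, -0.16 for proton-coupled, -0.18 for system A, -0.43 for other SLC38, -0.74 for sodium-independent large neutral and 1.11 for purine carriers, -1.004 for all members, and turned that of GABA, betaine and taurine carriers to -0.046. A replicate block left 9 members lower and 2 higher, and moved no list's count past both thresholds. Under it the adjusted p of SLC38A2 was 0.0587 and that of SLC36A4 was 0.0522. Same-numbered libraries did not deviate together (correlations -0.032, 0.021 and 0.001), so the numbers were not taken as pairs.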
